A study of Mus musculus with 4 samples.

Results

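A list of 10 genes of simple epithelium and mesothelium was followed in mouse libraries labelled as hip and knee articular cartilage. They were the keratins Krt19, Krt8 and Krt18, the transcription factor Wt1, the membrane and polarity genes Mal2 and Crb2, and the mesothelial-type surface genes Msln, Upk3b, Upk1b and Lrrn4. It stands against 54838 gene identifiers counted for the knee and 50686 counted for the hip. It was selected on the knee values, because Krt19, Wt1, Mal2 and Crb2 were far lower in the tamoxifen (TMX) knee library than in its control. The knee ratios below are therefore a description, and the hip ratios were not used for the choice.

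Cbfb encodes Cbfβ, the partner that strengthens DNA binding of the Runx transcription factors, and by the labels all mice carried floxed Cbfb alleles. The knee control was Oil injected Cbfβf/f;Aggrecan-CreERT, and the other knee library was labelled Tamoxifen injected with the same genotype. The hip control was Cbfβf/f with treatment None and no Cre, and the other hip library was Tamoxifen injected Cbfβf/f;Col2α1-CreERT. The 4 RNA-seq libraries, 1 per condition, came from male mice described as 6 weeks old for the hip and 12 for the knee. Another passage of the study states the hip age differently and calls the hip control wild type. TMX-inducible Cre acts where the Aggrecan or the Col2a1 gene is active, which is mainly in chondrocytes, and the number of mice per experiment that the study gives is not tied to the libraries. The hip control thus differs from its partner in Cre, TMX and any deletion together. The study's discussion describes the hip samples as cartilage alone and the knee samples as cartilage with bone. Between the pairs, the joint, tissue, Cre driver, age, control type and set of gene identifiers counted all change at once. Their parts cannot be told apart.

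Libraries held 34264456 to 38473120 counts on genes. In the hip control and TMX library, 12 skeletal muscle genes held 17.0% and 16.5% of these counts, and 16 chondrocyte genes 0.0260% and 0.0106%. In the knee, the muscle genes held 1.28% and 2.66%, the chondrocyte genes 0.641% and 0.315%, and 10 erythroid genes 10.0% and 4.96%. The levels below are therefore not those of chondrocytes alone. Values are given as CPM, the counts of a gene per 1000000 counts on genes in its library, and a log2 ratio is the TMX library over the control of the same joint after TMM scaling, with 0.5 added to each count. With 1 library per condition there is no replicate error, no test and no p-value, and 95% Clopper-Pearson intervals hold counting error alone. A call of lower or higher needed 10 or more counts in the pair together, a log2 ratio of 1 or more in either direction and an interval clear of 0. The verbs below mean this call. A floor of 3 counts per library is 0.0780 to 0.0876 CPM. Cbfb itself had 3796 counts in the knee control and 4572 in the TMX knee library, a log2 ratio of -0.07 (-0.13 to -0.01). In the hip it had 2548 and 2946 counts, a log2 ratio of 0.41 (0.33 to 0.48), so in neither pair was the gene called lower. The study reported less Cbfβ protein after TMX, by western blot of hip cartilage for both Cre drivers. It reported the same by immunofluorescence of the Aggrecan-CreERT knee. Protein is a different measure from these counts. Whether an exon was lost cannot be read from gene counts, and directions below refer to libraries as they are labelled.

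Simple epithelia are single cell layers whose filaments are built of Krt8 paired with Krt18 or Krt19. Mesothelium, the flat lining of the body cavities, shares these keratins, depends on Wt1 during development, and carries mesothelin and uroplakins on its surface. Adult articular cartilage is built by chondrocytes in a collagen II and aggrecan matrix and is bounded by synovium, bone, marrow and muscle. In bulk RNA, fewer cells of a type and less RNA per cell cannot be told apart.

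In the knee, the 10 genes lay far lower in the TMX library, and the oil control held the highest level of all 4 libraries for each. All 10 passed the count filter, Crb2 through the control alone, and 10 were called lower, where 6.81% of the 21131 knee genes tested were called lower. This contrast is the one that chose the genes, so nothing is read from the count. Their median log2 ratio was -4.76 (range -6.12 to -1.31), against 0.02 for all knee genes tested. For 9 of the 10 the knee log2 ratio was -3 or lower, as it was for 199 of the 21131 genes (0.942%). Summed over the 10 genes, the libraries held 6679 counts in the oil control and 302 in the TMX knee library, or 194.9 and 7.90 CPM.

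**Figure D1:**
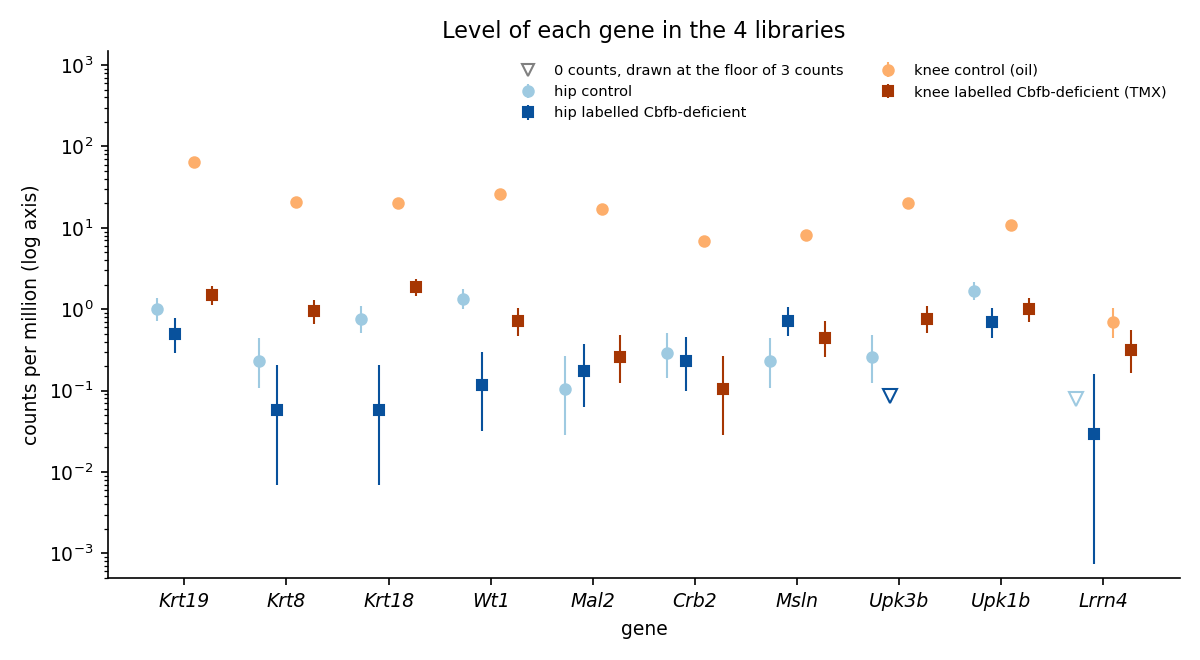
CPM (log axis) of each of the 10 genes in the hip control, the TMX hip, the oil knee control and the TMX knee library, with 95% counting intervals; open triangles stand for 0 counts and are drawn at the floor of 3 counts. The knee control lies highest for each gene, from 0.700 CPM for Lrrn4 to 64.0 CPM for Krt19, and its interval clears those of the other libraries for 9 of the 10, all but Lrrn4.

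Krt19, the smallest type I keratin and a filament protein of simple epithelia, had the highest level of the list. It had 2192 counts in the oil knee control, 57 in the TMX knee library, 39 in the hip control and 17 in the TMX hip library. The knee control thus stood alone at 64.0 CPM (61.3 to 66.7), while the other 3 libraries lay between 0.492 and 1.49 CPM. In the knee Krt19 was lower by 48.2-fold (37.4 to 64.5). In the hip its log2 ratio of -0.98 (-1.91 to -0.14) was just short of the size for a call. Krt19 (ENSMUSG00000020911) lies on chromosome 11 of GRCm39 from 100031636 to 100039491 on the minus strand, apart from the other keratins of the list.

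Krt8 and Krt18 encode the type II and type I keratins that pair with each other in simple epithelia. Krt8 (ENSMUSG00000049382) had 714 counts in the oil knee control, 36 in the TMX knee library, 9 in the hip control and 2 in the TMX hip library. Krt18 (ENSMUSG00000023043) had 695, 72, 29 and 2 counts in the same order. Krt8 was at 20.8 CPM (19.3 to 22.4) in the knee control and 0.942 CPM (0.660 to 1.30) in the TMX knee library. Krt18 was at 20.3 CPM (18.8 to 21.8) and 1.88 CPM (1.47 to 2.37), so each stood highest in the knee control. The knee log2 ratio was -4.63 (-5.17 to -4.17) for Krt8, which is 24.8-fold lower, and -3.60 (-3.98 to -3.26) for Krt18, which is 12.1-fold lower. In the hip Krt18 was lower, with a log2 ratio of -3.36 (-6.77 to -1.68), while Krt8 had -1.73 (-5.22 to 0.30) and no call.

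The pair are neighbours on chromosome 15 of GRCm39, Krt8 from 101905133 to 101912917 on the minus strand and Krt18 from 101936615 to 101940462 on the plus strand. They are read away from each other, with 23698 bases between their starts. Their promoters are shown because both partners were lower in the TMX knee library. Each line gives the 250 bases before the RefSeq start site of the table for GRCm38.p6, 5′ to 3′ on the gene's own strand. The Krt8 run is chr15:102004343-102004592 (minus strand) and the Krt18 run is chr15:102027966-102028215 (plus strand), and capitals mark matches to the E-box letters CANNTG.
Krt8: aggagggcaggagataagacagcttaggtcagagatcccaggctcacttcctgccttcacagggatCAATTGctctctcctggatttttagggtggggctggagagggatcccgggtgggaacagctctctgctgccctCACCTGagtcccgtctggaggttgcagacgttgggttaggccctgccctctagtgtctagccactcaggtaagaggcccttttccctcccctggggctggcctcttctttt
Krt18: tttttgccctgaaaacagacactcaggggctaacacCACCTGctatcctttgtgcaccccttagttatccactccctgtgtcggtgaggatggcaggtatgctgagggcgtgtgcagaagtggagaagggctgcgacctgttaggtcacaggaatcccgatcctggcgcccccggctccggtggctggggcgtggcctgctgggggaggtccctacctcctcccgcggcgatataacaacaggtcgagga
The table held promoters of 5 of the 10 genes, those of Krt8, Krt18, Crb2, Upk3b and Lrrn4. The windows of 300 bases (250 before the start and 50 after) were searched on both strands for 4 motifs. These were the SP1 letters GGGCGG, the core promoter letters TATAAA, the WT1 letters GNGTGGGNG and the E-box letters CANNTG. Counted from the start site, with negative positions before it, Krt8 held E-box letters at -184 to -179, -111 to -106 and 41 to 46, and Krt18 at -214 to -209. The core promoter letters were found in Krt8 only, across the start site itself on both strands, in matches that overlap each other. E-box letters are in 72.3% of the 32851 mouse promoters of this length and the core promoter letters in 13.6%. A match is a description of letters and not of binding.

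Wt1 encodes the zinc finger transcription factor named after Wilms tumour, which is active in mesothelium, kidney podocytes and gonadal support cells. Wt1 (ENSMUSG00000016458, chromosome 2 of GRCm39 from 104956625 to 105003961, plus strand) had 900 counts in the oil knee control, 27 in the TMX knee library, 52 in the hip control and 4 in the TMX hip library. In each joint the control was the higher library, and the counting intervals did not overlap. Wt1 was lower by 41.4-fold in the knee (28.8 to 64.4), and in the hip its log2 ratio was -3.35 (-5.43 to -2.06). Its antisense gene Wt1os, which overlaps it over 289 bases, had 19 and 2 counts in the knee and 0 and 0 in the hip. The strand used for counting was not stated, so reads of the overlap cannot be assigned to either gene.

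Mal2 encodes a 4-span membrane protein needed to carry proteins to the apical face of polarised epithelial cells. Mal2 (ENSMUSG00000024479, chromosome 15 of GRCm39 from 54434576 to 54466243, plus strand) had 578 counts in the oil knee control, 10 in the TMX knee library, 4 in the hip control and 6 in the TMX hip library. The knee control was the only library above 0.262 CPM, and its level was 16.9 CPM (15.5 to 18.3). The knee ratio was the largest of the list at 69.7-fold (39.5 to 153), although that interval overlaps those of Crb2, Wt1, Krt19 and Upk3b. In the hip the log2 ratio was 0.73 (-1.29 to 3.05), on too few counts to show a direction.

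Crb2 encodes a Crumbs protein, a transmembrane organiser of the apical face of epithelial cells. Crb2 (ENSMUSG00000035403, chromosome 2 of GRCm39 from 37666261 to 37689115, plus strand) had 233 counts in the oil knee control, 4 in the TMX knee library, 11 in the hip control and 8 in the TMX hip library. It was lower in the knee by 65.7-fold (28.4 to 273), and in the hip its log2 ratio was -0.24 (-1.78 to 1.19), with no call. The gene overlaps Dennd1a over 151 bases, and Dennd1a had 580 and 843 knee counts with a log2 ratio of 0.20. Its promoter run is shown for a member with a deep knee fall and a match to the SP1 letters (capitals) at positions -50 to -45, in the run chr2:37775999-37776248 of GRCm38.p6 on the plus strand.
Crb2: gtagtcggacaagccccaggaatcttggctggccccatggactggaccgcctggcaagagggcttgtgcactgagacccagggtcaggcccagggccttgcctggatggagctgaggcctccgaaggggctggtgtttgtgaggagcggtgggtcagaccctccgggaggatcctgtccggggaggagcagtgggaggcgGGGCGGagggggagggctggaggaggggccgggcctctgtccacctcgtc
The SP1 letters are in 35.7% of all promoters, and Crb2 alone of the 5 genes held them. GC made up 69.3% of its 300-base window, against 58.0 to 61.3% in the other members and a median of 52.7% over all promoters.

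Msln encodes mesothelin, a glycoprotein anchored to the surface of mesothelial cells. Msln (ENSMUSG00000063011, chromosome 17 of GRCm39 from 25967312 to 25985619, minus strand) had 281 counts in the oil knee control, 17 in the TMX knee library, 9 in the hip control and 25 in the TMX hip library. It was lower in the knee by 20.4-fold (12.8 to 36.4) and higher in the hip, with a log2 ratio of 1.62 (0.52 to 2.96). Of the 10 genes it was the only one called higher in either joint.

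Upk3b and Upk1b encode uroplakins, membrane proteins known from the bladder surface, and Upk3b is also a mesothelial marker. Upk3b (ENSMUSG00000042985, chromosome 5 of GRCm39 from 136067350 to 136075342, plus strand) had 694 counts in the oil knee control, 29 in the TMX knee library, 10 in the hip control and 0 in the TMX hip library. Upk1b (ENSMUSG00000049436, chromosome 16 of GRCm39 from 38591981 to 38620727, minus strand) had 368, 38, 65 and 24 counts in the same order. For both genes the control was the higher library in each joint, with intervals that do not overlap. In the knee Upk3b was lower by 29.8-fold (20.9 to 45.6) and Upk1b by 12.1-fold (8.76 to 17.6). In the hip Upk1b was lower by 2.33-fold (1.46 to 3.94), and Upk3b was at least 2.91-fold lower against the floor of 3 counts in the TMX hip library, with a limit of 1.95-fold from the counting interval.

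Lrrn4 encodes a leucine-rich repeat membrane protein known as a mesothelial marker. Lrrn4 (ENSMUSG00000043110, chromosome 2 of GRCm39 from 132705985 to 132735941, minus strand) had 24 counts in the oil knee control, 12 in the TMX knee library, 0 in the hip control and 1 in the TMX hip library. It had the lowest level and the smallest knee ratio of the list, 2.48-fold (1.22 to 5.55), and 5.37% of all knee genes tested had a ratio as low or lower, against at most 0.592% for the other members. In the hip both libraries were at or under the floor, so no fold is given. The gene overlaps Crls1 over 3055 bases, and Crls1 had 594 and 671 knee counts with a log2 ratio of -0.16. The Lrrn4 promoter, chr2:132880863-132881112 of GRCm38.p6 on the minus strand, is shown as that of the member with the smallest fall and as the only one of the 5 with the WT1 letters (capitals), at positions -219 to -211.
Lrrn4: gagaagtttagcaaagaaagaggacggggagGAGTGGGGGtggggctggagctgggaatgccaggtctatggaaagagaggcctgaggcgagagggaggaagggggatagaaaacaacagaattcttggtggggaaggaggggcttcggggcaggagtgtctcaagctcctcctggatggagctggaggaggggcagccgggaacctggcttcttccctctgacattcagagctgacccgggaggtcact
The WT1 letters are in 14.3% of all promoters.

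**Figure D2:**
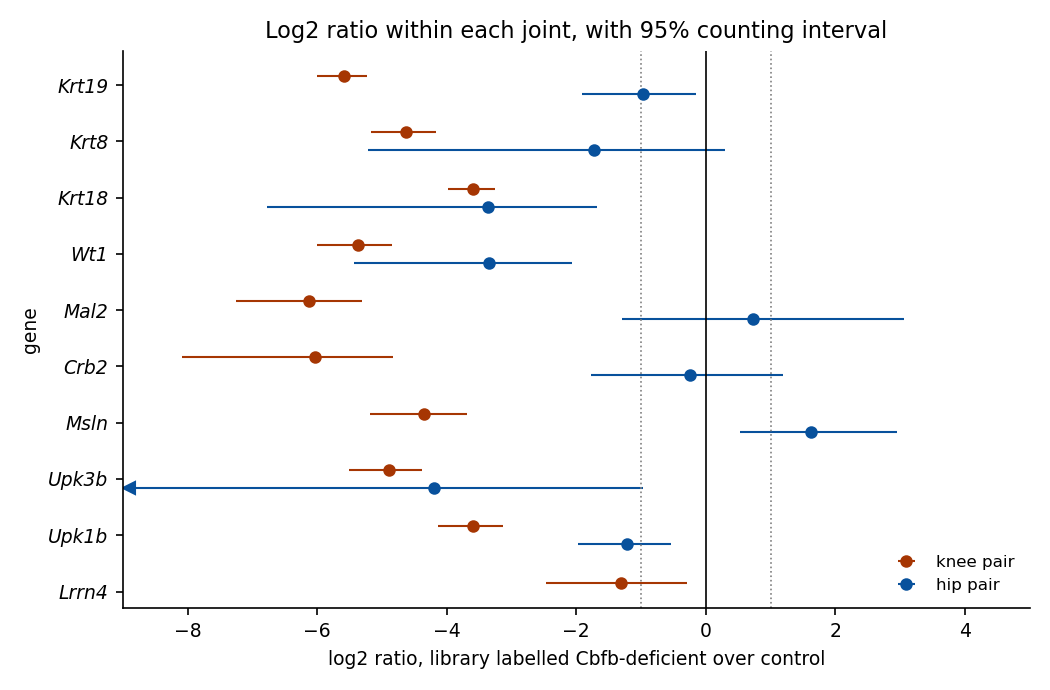
Log2 ratio of the TMX library over the control of the same joint for each gene (horizontal axis), with 95% counting intervals, for the knee pair and the hip pair. The knee ratios run from -6.12 for Mal2 to -1.31 for Lrrn4, and the hip ratios lie on both sides of 0, with Msln at 1.62.

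In the hip, where the values played no part in the choice, the list was close to the limit of detection. Of the 10 genes 9 passed the count filter, but Krt18, Wt1, Crb2 and Upk3b reached 10 counts only in the control and Msln only in the TMX library, so the filter favoured a difference for these. Krt18, Wt1, Upk3b and Upk1b were called lower, where 16.3% of the 19856 hip genes tested were called lower. Msln alone was called higher, where 20.2% of hip genes were. The remaining Krt19, Krt8, Mal2 and Crb2 had no call. With at least 10 counts required in each hip library, 2 members could be compared, Krt19 and Upk1b, of which Upk1b was called lower and 0 higher. Of the 15109 hip genes that met this filter, 9.50% were called lower and 20.6% higher. The hip median of the 9 genes was -1.22 on the log2 scale, against 0.01 for all hip genes tested. Summed over the 10 genes, the hip held 228 counts in the control and 89 in the TMX library, or 5.93 and 2.57 CPM.

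Levels across the joints are given as a description, since the genes were picked for being high in the oil knee control. Knee control CPM was 6.36 times that of the hip control for Upk1b and 162 times for Mal2, with the others between, apart from Lrrn4, which had 0 counts in the hip control. The TMX knee library was nearer the hip control, with counting intervals that overlapped for Krt19, Wt1, Mal2, Crb2, Msln and Upk1b. It lay above the hip control for Krt8, Krt18, Upk3b and Lrrn4 and below it for 0 genes. These levels cross tables with different gene identifiers, mice of different ages and genotypes, and samples described as holding bone in the knee only.

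Per length, the order of the genes also changed. CPM per kilobase of merged exons in the knee control were 34.5 for Krt19, 14.1 for Krt18, 10.6 for Krt8, 5.74 for Upk3b, 4.27 for Mal2, 4.08 for Wt1, 2.79 for Upk1b, 1.82 for Msln, 1.02 for Crb2 and 0.0855 for Lrrn4. Of the 9 pairs of neighbours in this order, Mal2 and Wt1 alone had overlapping counting intervals. The order depends on the length used: with that of the longest transcript, Wt1 stood at 7.86 and Mal2 at 5.25, so that Wt1 passed Mal2 and Upk3b, and 7 of 10 genes kept their rank. In the TMX knee library Krt18 came first at 1.31 per kilobase and Krt19 second at 0.804, and all 9 neighbouring intervals overlapped. Krt19 made up 43.6% of the summed per-kilobase level of the 10 genes in the knee control and 23.7% in the TMX knee library, while Krt18 went from 17.9 to 38.6%. In the hip Krt19 came first in both libraries, and 8 of 9 neighbouring intervals overlapped in each.

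**Figure D3:**
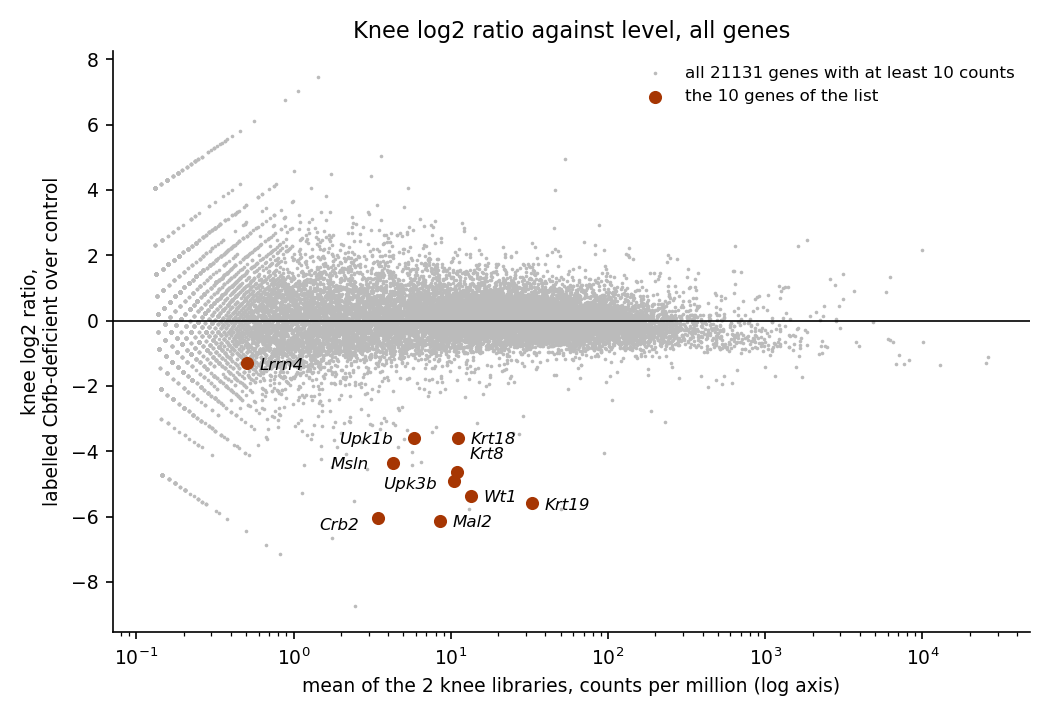
Knee log2 ratio of the TMX library over the oil control (vertical axis) against the mean CPM of both knee libraries (log axis) for the 21131 knee genes with at least 10 counts (grey), with the 10 genes of the list marked and named. Of the 10, 9 sit at -3 or lower, where 0.942% of all genes sit.

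Keratins outside the list were lower more often than not. GENCODE annotates 51 keratin genes of the type followed, and 18 besides the members passed the count filter in the knee, of which 11 were called lower and 2 higher (the knee share called higher was 9.00% over all genes). With at least 10 counts in each knee library, 8 were lower and 0 higher. The median knee log2 ratio of the 18 was -1.35. Krt10, a keratin of the upper epidermis, was lower at 247 and 127 counts, with a log2 ratio of -1.30 (-1.62 to -0.98). Krt80, another epithelial keratin, had 325 and 601 knee counts and no call at 0.55 (0.35 to 0.75), and in the hip it was higher, from 87 to 325 counts. Among keratins named after their values were seen, Krt14 and Krt5, the basal pair of stratified epithelium, were lower in the knee with log2 ratios of -3.15 and -2.78, and Krt76 was lower with -3.87.

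Krt8, Krt18 and Krt19 together held 58.5% of all keratin CPM in the knee control and 9.93% in the TMX knee library. The keratin sum went from 179.6 to 43.5 CPM in the knee. In the hip it was 16.9 and 17.1 CPM, where 12 of 16 non-member keratins that passed were called lower (16.3% over all hip genes) and 1, Krt80, higher. Each of the 12 passed through the control alone, and 0 were called lower with at least 10 counts in each library. Krt80 alone held 9.40 of the 17.1 CPM of the TMX hip library.

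**Figure D4:**
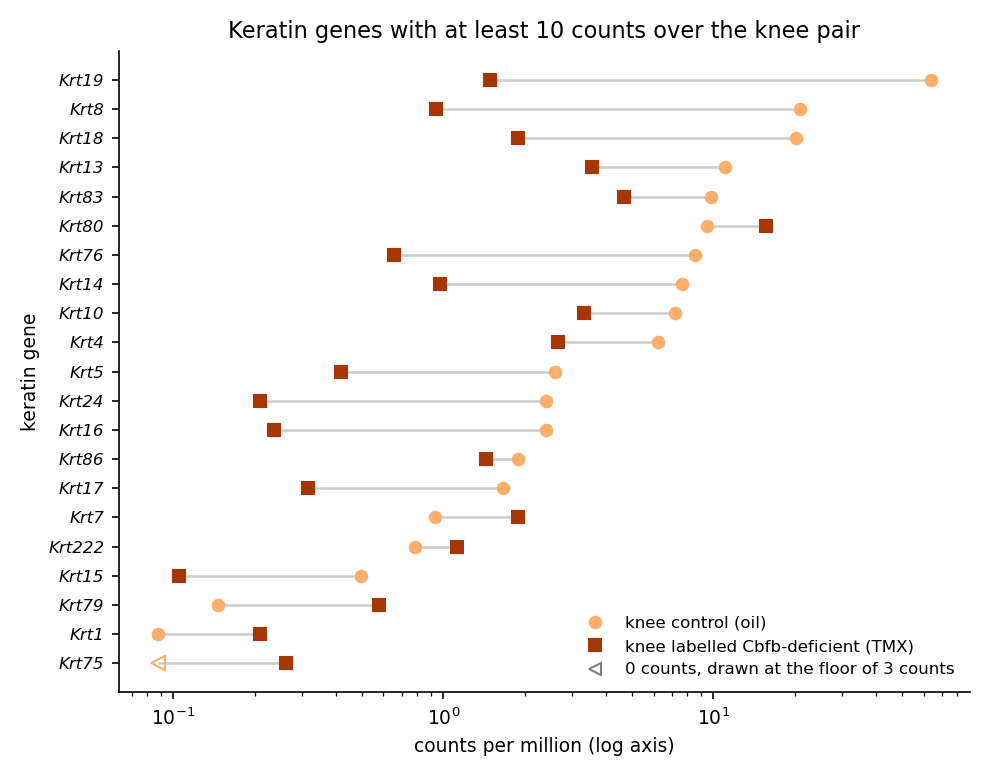
CPM (log axis) of each keratin gene with at least 10 counts over the knee pair, in the oil control (circles) and the TMX knee library (squares); open triangles stand for 0 counts, drawn at the floor of 3 counts. Krt19 has the widest gap of the 21 genes, from 64.0 to 1.49 CPM, and Krt75 and Krt79 are called higher, each with fewer than 10 counts in the control.

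Markers of the cell types that share the 10 genes were then read as whole lists, none of which contains a member. Over all genes tested, 6.81% were called lower and 9.00% higher in the knee, and 16.3% and 20.2% in the hip. Of 12 other mesothelial genes tested in the knee, 3 were called lower and 0 higher, and their median log2 ratio was -0.32. Their sum was 170.4 CPM in the oil control and 174.9 in the TMX knee library. The most counted were not called, although Podxl was higher with library size alone, at a log2 ratio of 1.03. Bcam, a laminin-binding adhesion molecule, had 990 and 1435 counts, Podxl, an anti-adhesive sialomucin, 789 and 1792, Pkhd1l1, a fibrocystin-like membrane protein, 1575 and 1017, and the tight junction gene Cldn15 1137 and 1282. Those called lower were Gpm6a with 582 and 317 counts, Muc16 with 19 and 2, and Bnc1 with 19 and 0. Bnc1 is a zinc finger factor of mesothelium and basal epithelium. Muc16 and Bnc1 reached 10 counts only in the control, so the filter favoured a difference for these. In the hip, 1 of 11 was called lower and 1 higher. There Krt7 was lower too with DESeq2 size factors or library size alone, and Pdpn with DESeq2 size factors.

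Simple epithelial genes outside the list followed. Of 16 tested in the knee, 2 were called lower and 1 higher, with a median log2 ratio of -0.40 and summed levels of 35.4 and 30.0 CPM. The epithelial adhesion genes Cdh1, with 259 and 185 knee counts, and Epcam, with 85 and 102, were not called. Those called lower were the tight junction gene Cldn3, with 120 and 10 counts, and the splicing regulator Esrp2, with 35 and 9. The tight junction gene Cldn7 was higher with 4 and 18. Esrp2 reached 10 counts only in the control and Cldn7 only in the TMX knee library. With 10 in each knee library, Cldn3 alone was called. In the hip, 6 of 14 were called lower and 1 higher, and with at least 10 counts in each hip library 1 was lower and 0 higher.

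The keratinocyte markers include keratins already counted above. Of 13 tested in the knee, 8 were called lower and 1 higher, with a median of -1.81 and summed levels of 46.3 and 24.1 CPM. Perp, a desmosomal membrane protein, was lower with 324 and 108 counts. Sfn, a 14-3-3 protein of epithelium, had 462 and 517 counts and no call, and Trp63, the master regulator of stratified epithelium, was higher with 22 and 65. In the hip, 2 of 6 tested were called lower and 1 higher.

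Podocytes also use Wt1 and Crb2, and Nphs1 and Tcf21, which help define them, were at or near 0 in the knee. Nphs1 had 0 and 1 counts there and Tcf21 had 0 in both libraries. The podocyte list summed to 116.5 CPM in the oil control and 207.9 in the TMX knee library. Of the 9 podocyte genes tested, 0 were called lower and 1 higher. The higher one was Clic5, with 774 and 2517 counts, and Synpo, an actin-binding protein that muscle also makes, had 1493 and 3055 without a call. In the hip, Nphs1 had 2 and 0 counts and Tcf21 10 and 0, and of 10 podocyte genes tested 1 was called lower and 1 higher. In a list for notochord and nucleus pulposus, which also hold Krt8, Krt18 and Krt19, the defining genes T, Noto and Shh had 0 counts in both knee libraries. That list summed to 1024.7 CPM in the oil control and 964.8 in the TMX knee library. Of 5 genes of it tested, 2 were called lower and 0 higher. These were Car12, a carbonic anhydrase, with 421 and 26 counts, and Foxa2, a forkhead factor, with 209 and 74. In the hip, 2 of 5 were called lower and 0 higher, and Krt7 was lower too with DESeq2 size factors or library size alone.

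**Figure D5:**
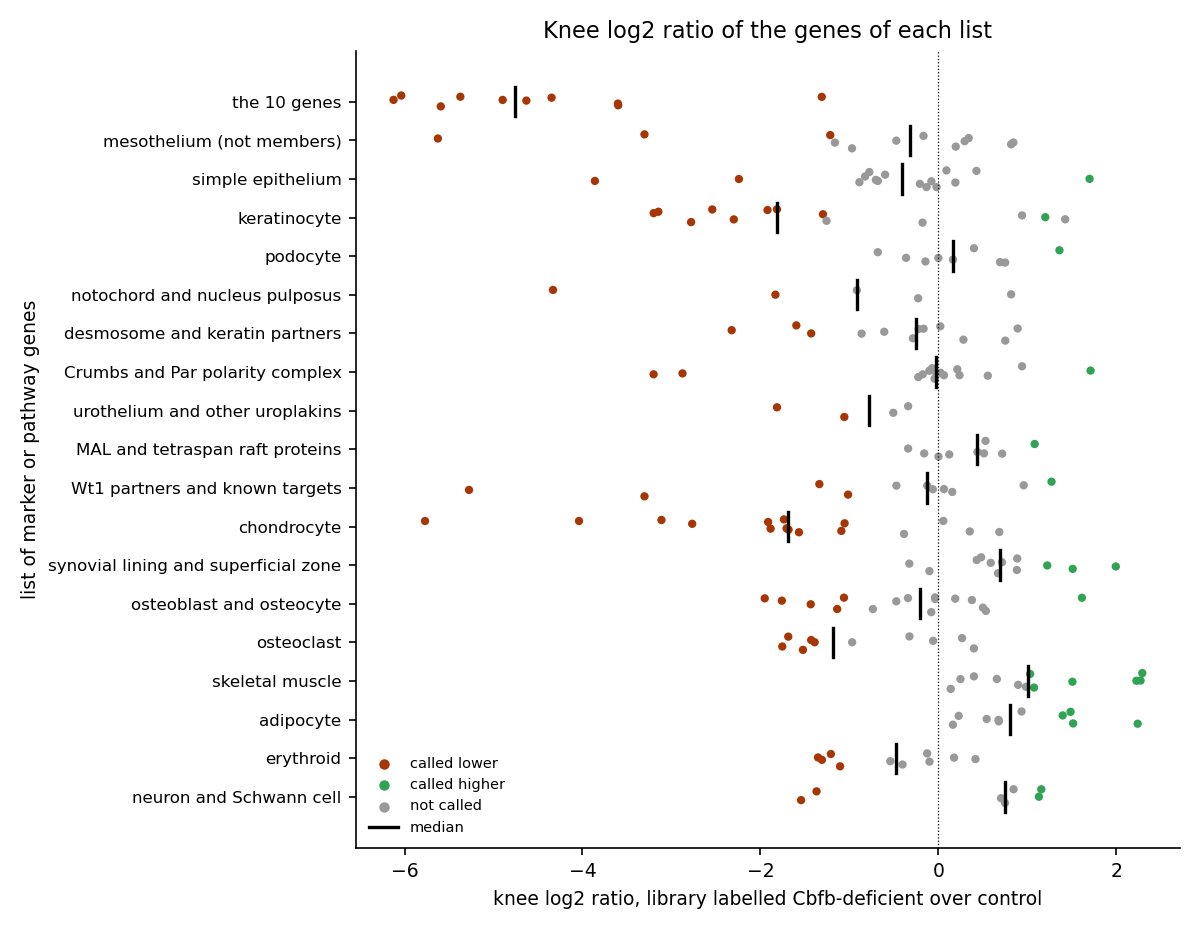
Knee log2 ratio of the TMX library over the oil control for each gene of each list with at least 10 counts over the pair (points, coloured by call), with the median of the list as a bar. The 10 genes have a median of -4.76, the keratinocyte markers -1.81, the mesothelial genes outside the list -0.32 and skeletal muscle 1.01.

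Partners of the members in the cell were read from lists too. Of 12 genes of desmosomes and keratin linkers tested in the knee, 3 were called lower and 0 higher, with a median of -0.25. These were Dsp, the plaque protein that anchors keratin, at 113 and 47 counts, and the desmosomal cadherins Dsg2, at 128 and 32, and Dsc2, at 41 and 19, while the linker Plec was not called at a log2 ratio of 0.75. In the hip, 0 of 11 were called lower and 3 higher. Of 15 genes of the Crumbs and Par complexes tested, 2 were called lower and 1 higher. Pard6b, a Par complex adaptor, was lower with 192 and 26 counts and Crb3, the epithelial Crumbs protein, with 14 and 2. Crb3 passed the count filter only through the control. With the minimum count required in each knee library, 1 gene of that list was called lower. In the hip, 2 of 15 were called lower and 5 higher. The knee median of that list was -0.02, or 0.16 when library size alone set the scale.

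Of 11 Wt1 partners and known targets tested in the knee, 4 were called lower and 1 higher, with a median of -0.13, or 0.06 with library size alone. Nr5a1, a nuclear receptor of gonad and adrenal, had 76 and 2 counts, a log2 ratio of -5.27 (-8.66 to -3.68). Wnt4, a Wnt ligand, was lower with 1039 and 520, and Igfbp5, an IGF-binding protein, was higher with 6535 and 19976. Basp1, a WT1 co-repressor, was lower at -1.01, a call lost with library size alone. The other gene called lower was Wt1os, the antisense gene that overlaps Wt1. Nr5a1 and Wt1os passed the count filter only through the control, so the filter favoured a difference for these. With the minimum count required in each knee library, 2 genes of the list were called lower, Wnt4 and Basp1. In the hip 6 of 11 genes of that list were called lower and 0 higher.

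Of 4 other uroplakin and urothelial genes tested in the knee, 2 were called lower, from a summed level of 5.0 CPM in the control, and 1 with library size alone, which loses Foxq1. When the minimum count was required in each knee library, 1 of these was called lower. Upk3a had 2 and 0 knee counts. Of 9 relatives of Mal2 (MAL and tetraspan raft proteins) tested, 0 were called lower and 1 higher, a call lost with an added count of 2, and the median was 0.44. In the hip, 2 of 4 genes of the urothelial list and 2 of 9 of the Mal2 relatives were called lower, and 0 of either higher.

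Tissue markers also differed between the knee libraries, where 6.81% of all genes tested were called lower and 9.00% higher. Of 16 chondrocyte genes 12 were called lower and 0 higher, with a median of -1.69 and summed levels of 6412 and 3151 CPM. Osteoclast genes were lower for 5 of 10 and osteoblast and osteocyte genes for 5 of 16, with 1 of the latter higher, and erythroid genes for 4 of 10, from 100068 to 49643 CPM in sum. Higher were 6 of 12 skeletal muscle genes, from 12771 to 26637 CPM in sum, 4 of 10 adipocyte genes and 3 of 12 genes of synovial lining and superficial zone. With library size alone, 5 of these synovial and superficial genes were higher and 3 of the osteoblast and osteocyte genes lower. Of 7 neuron and Schwann cell genes, 2 were lower and 2 higher. In the hip, chondrocyte genes summed to 259.8 and 106.3 CPM, with 5 of 15 lower and 2 higher. With library size alone, Col11a2 was lower too and Hapln1 lost its higher call. Muscle genes summed to 170032 and 165390 CPM, with 2 of 12 lower and 1 higher. Osteoblast and osteocyte genes were lower for 6 of 16 in the hip and higher for 2, from 1007 to 305.0 CPM in sum. Erythroid genes were lower for 4 of 10 and higher for 0, from 5894 to 2230.4 CPM. Over all hip genes tested, 16.3% were called lower and 20.2% higher. The part of these tissues in the values of the 10 genes was not tested.

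The genes whose pattern over the 4 libraries was most like the mean of Krt19, Wt1, Mal2 and Crb2 were ranked among 15728 genes with at least 50 knee counts. The measure was the root mean square difference of centred log2(CPM + 0.1). Values under about 0.1 CPM, which many of these genes have in the hip, are flattened by the added amount. The nearest was Wnt10a, a Wnt ligand of skin appendages and bone, at 0.410, with 672 and 29 knee counts and 43 and 11 hip counts. Serpina1a, an antitrypsin gene with near-identical copies whose reads counting can split, followed at 0.424 with 367 and 21 knee counts. R3hdml, at 0.431, had 162 and 4 knee counts and 0 in both hip libraries.

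The transcript 4930461G14Rik, at 0.483, had 168 and 0 knee counts and was at least 70.9-fold lower against the floor, with a limit of 57.0-fold from the counting interval. Rpp25, a subunit of the ribonuclease P and MRP complexes, came next at 0.497 with 119 and 1 knee counts. The others were Rspo4, a Wnt agonist of the nail, at 0.611, Syt8, a synaptotagmin, at 0.621, Slc2a5, the fructose transporter, at 0.626, Matn3, a matrilin of cartilage matrix, at 0.670 and Fxyd2, a subunit of the sodium pump, at 0.803. Of these, Matn3 had 3384 and 78 knee counts and Fxyd2 1692 and 194. For comparison, the distances of the 4 genes that set the pattern were 0.345 for Krt19, 0.517 for Mal2, 0.653 for Crb2 and 0.673 for Wt1, and the other members ran from 0.774 for Krt8 to 1.61 for Lrrn4. With 4 libraries the pattern rests on 1 high library, the knee control.

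For Krt8, overlapping or similar genes were counted apart. Krt8-ps, a pseudogene named after Krt8, had 6 and 0 knee counts and 2 and 0 in the hip. Gm36026, which overlaps Krt8 over 271 bases, had 8 and 0 in the knee. How reads shared with these genes were counted is not stated.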

How the data were processed

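RNA-seq of 4 mouse libraries labelled articular cartilage, 1 per condition, was used. The labels' extraction note names osteoblasts. The authors deposited raw counts, whole numbers for each Ensembl gene. The submitters' processing notes name STAR 2.0, FastQC 0.11.3 and the build mm10, while the study's methods name GRCm39. Hip counts carry HTSeq summary lines, 25.8% and 24.6% of the reads listed, which were left out. The knee counting program and the strand setting are not given in the sources used here.

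Identifiers were matched to GENCODE annotation of GRCm39 (92.6% in the knee, 91.8% in the hip). Scaling used edgeR 4.0.16 (TMM within each pair) in R 4.3.3, and DESeq2 1.42.0 size factors served as the other scaling. The remaining work was done in Python 3.11.15 (scipy 1.17.1, pandas 2.3.3, numpy 2.4.6, matplotlib 3.10.9). Counting intervals were 95% Clopper-Pearson. Reads carry no molecular identifiers, so intervals and floors cover counting error only. The steps were tested on simulated counts.

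The members, lists and alternatives were chosen with earlier results of these data known. The genes named were the members, Cbfb, overlapping genes and pseudogenes, the 10 nearest genes by pattern, the 5 keratins and up to 4 genes per list with most counts; other genes named were chosen after their values were seen, and some genes of the lists are not reported here by name. Promoters are RefSeq sequences of GRCm38.p6.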

Additional observations from a re-analysis of the deposited data

Results flagged for a closer look

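Msln moved in opposite directions in the joints. Its log2 ratio was -4.35 in the knee (281 and 17 counts) and 1.62 in the hip (9 and 25 counts), and each counting interval excluded 0. In the hip Msln reached 10 counts only in the TMX library, where it is high, and its hip call was lost with at least 10 counts in each library and with a log2 ratio of 2 or more. The difference between the joints was not tested, since each direction rests on 1 library against 1. The pairs also differ in the tissue described, age, Cre driver and control type.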

How the results depend on the processing

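No paired analysis was possible because each condition had 1 library, and for the same reason none could be left out in turn. The log2 ratios of the members, 10 in the knee and 9 in the hip, stayed inside their counting intervals under DESeq2 size factors, library size alone, an added count of 2, and after removing trends with GC content and transcript length. All 10 members were also called lower in the knee under each of these and with no count filter, and 9 with at least 10 counts in each library. With at least 10 counts in each library, 1 member was called lower and 0 higher in the hip, with 2 members compared. Over all genes 811 were then lower and 1202 higher of 17633 in the knee, and 1435 lower and 3113 higher of 15109 in the hip. With a log2 ratio of 2 or more in either direction, Lrrn4 lost its knee call at -1.31 and Upk1b its hip call at -1.22. Under that rule 0 members were higher in the hip. Over all genes 564 were then lower and 596 higher in the knee, and 1691 lower and 1455 higher in the hip. Library size alone moved the median knee log2 ratio of all genes from 0.02 to 0.20 and the share of called knee genes that were higher from 56.9 to 71.3%. It also moved the number of knee genes called higher from 0 to 1 in the mesothelial list, from 0 to 1 in the desmosome list and from 1 to 2 in the Wt1 list. The share in the hip went from 55.4 to 68.4% with at least 10 counts in each library. With all members setting the reference pattern, 6 of the 10 nearest genes were shared. Few counts limit the hip ratios, where 1 member in the control and 4 in the TMX library were at or under 3 counts.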
